A study of Mus musculus with 6 samples.

Results

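Estradiol (labelled E2) and a further estrogen labelled 16Epi were the 2 estrogens not titled as hydroxyestrogens among the 6 libraries of the series. The labels do not give the structure of 16Epi. E2 and 16Epi were chosen by their titles and are called non-catechol estrogens here, a name that no label gives for 16Epi. Each was set against the ethanol vehicle (EtOH) given to the same kind of culture. Macrophages had been raised in culture from the marrow of female C57BL/6N mice, 8 weeks of age, under M-CSF (20 ng/mL), their growth factor. They were plated on day 7 and kept in phenol red-free medium and charcoal-stripped serum, a combination that lowers background estrogen. The E2 culture received estradiol for 1 h and then lipopolysaccharide (LPS, 100 ng/mL) for 6 h. The 16Epi culture received 16Epi and the EtOH culture ethanol in the same way, also followed by LPS. The unit of the final dose is garbled in the labels; a stock of 1 mM diluted 1 to 1000 gives 1 µM for either estrogen. The other 3 libraries received the hydroxyestrogens 2OHE2, 4OHE1 and 2OHE1, which are catechol estrogens, at the same dilution and times with the same LPS. All 6 cultures received LPS, so no value shows an unstimulated level. Each compound had 1 library, and the labels do not say whether libraries came from separate animals or cultures. The sample titles call EtOH, E2 and 16Epi controls, while here the estrogens were set apart from EtOH. A treatment field in the labels contradicts the titles, calling the EtOH library a hydroxyestrogen. Titles, column headers and the vehicle named in the protocol were followed for the compounds.

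Estradiol acts through the nuclear receptors ERα (Esr1) and ERβ (Esr2), which bind DNA at estrogen response elements or work through other factors, and through the membrane receptor GPER1. LPS is sensed by TLR4 with its partners CD14 and MD-2 (Ly96), and drives NF-κB, AP-1 and interferon regulatory factors to switch on cytokines, chemokines and interferon-stimulated genes. Catechol estrogens carry a pair of neighbouring hydroxyls on the aromatic ring, can be oxidised to reactive quinones, and are known activators of the NRF2 stress response; E2 has no such catechol.

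The deposited values are RPKM, that is, reads divided by the transcript's length and by the library's tag number. Multiplied by transcript length and library total, they gave whole reads, namely 15013412 in genes for E2, 14734225 for 16Epi and 16059673 for EtOH. The 7139 genes of at least 200 nt with a mean of at least 5 RPKM over E2, 16Epi and EtOH were tested, of 24016 in the table. Differences are of log2(RPKM + 0.1), which understates the change of low genes. Macrophage identity was checked on a marker list: 17 of its 19 measured members reached a mean of 5 RPKM, and the list summed to 12393 RPKM with E2, 11999 with 16Epi and 12401 with EtOH. Of 11 measured neutrophil markers 1 reached 5 RPKM, S100a8, with 37 RPKM in E2, 27.3 in 16Epi and 21.3 in EtOH cells. That list summed to 46.8, 32 and 32.2 RPKM with E2, 16Epi and EtOH, and Ctsg, Retnlg and Cxcr2 were at 0 in all 3. Markers of T and NK cells, B and plasma cells, dendritic, erythroid and mast cells had no member at a mean of 5 RPKM, while 2 of 10 fibroblast markers and 1 of 7 endothelial markers had. The part of other cells in the results was not tested, and in bulk RNA fewer cells of a type and less RNA per cell cannot be told apart.

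Genes known to be induced by LPS were among the most abundant in all 3 libraries. The gene of highest RPKM was Fth1, the ferritin heavy chain that stores iron, at 19342 RPKM with E2, 18688 with 16Epi and 19439 with EtOH. Actin (Actb), lysozyme (Lyz2), the actin-binding peptide gene Tmsb4x and the ferritin light chain Ftl1 followed in EtOH cells, and then 3 chemokines. Ccl3, which attracts monocytes and T cells, stood at 4368, 4807 and 4499 RPKM with E2, 16Epi and EtOH. Ccl4, its close relative, stood at 4632, 4638 and 4417 RPKM in the same order. Cxcl10, an interferon-induced T cell attractant, had 4216 RPKM with E2, 4753 with 16Epi and 4187 with EtOH. Ccl5 and Il1b completed the 10 highest genes of the EtOH library. The 10 genes with the most reads in each library took 7.99% of gene reads with E2, 7.67% with 16Epi and 7.93% with EtOH. Of the 50 highest genes with EtOH, 49 were also among the 50 highest with E2, and 49 with 16Epi.

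The cytokine that initiates much of the response, Tnf, had 1941 RPKM with E2, 1977 with 16Epi and 1850 with EtOH. Il1b, the inflammasome-processed cytokine, had 3042, 3236 and 3166 RPKM with E2, 16Epi and EtOH. Il6, an inducer of the acute phase, had 387 RPKM with E2, 456 with 16Epi and 443 with EtOH, so the EtOH value lay between those of the estrogens for both Il1b and Il6. Il12b, the shared subunit of IL-12 and IL-23, had 152 and 166 RPKM with E2 and 16Epi, against 186 with EtOH. Il10, an anti-inflammatory cytokine, had 50.1 and 54.7 RPKM with E2 and 16Epi, against 53.4 with EtOH. The monocyte attractant Ccl2 was lower in both estrogen libraries, at 448 RPKM with E2 and 444 with 16Epi, against 515 with EtOH. Irg1, which makes itaconate, held 2499, 2466 and 2464 RPKM with E2, 16Epi and EtOH. Nos2, the inducible nitric oxide synthase, held 143 RPKM with either estrogen against 134 with EtOH. Ptgs2, the inducible cyclooxygenase, had 764 RPKM with E2 and 875 with 16Epi, against 798 with EtOH. The interferon gene Ifnb1 was low at 16, 20.9 and 15.8 RPKM with E2, 16Epi and EtOH, and its target Ifit1 high at 536, 565 and 569.8 RPKM. None of these genes separated the estrogens from EtOH by 1.5-fold, as the plot of levels by library shows.

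**Figure D1:**
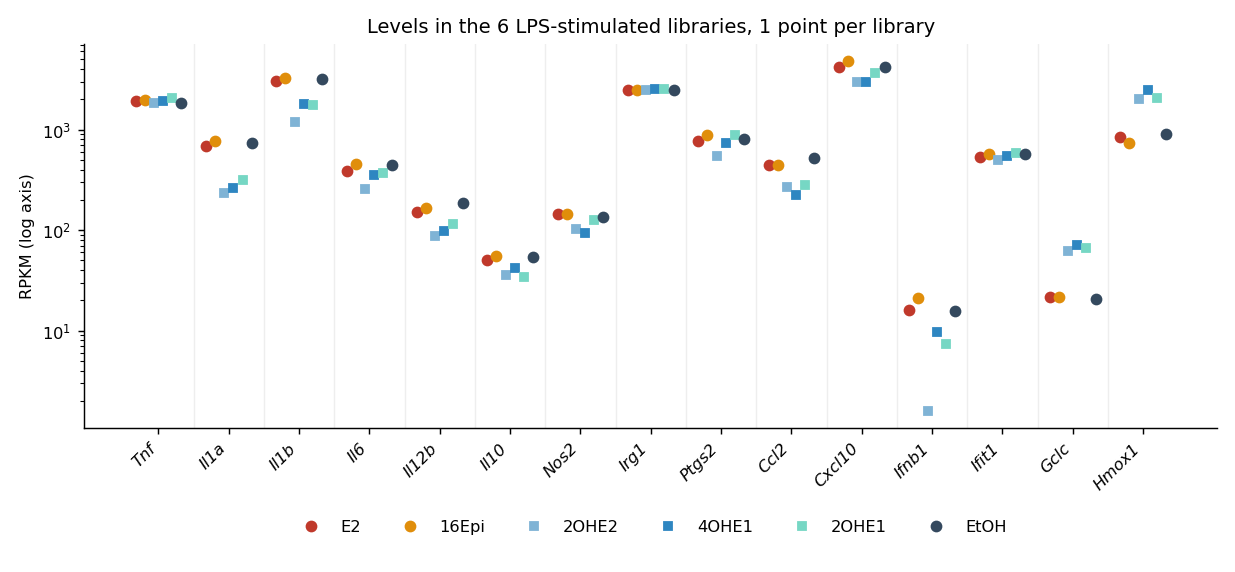
RPKM (log axis) of 15 LPS-response and stress genes, 1 point per library; circles are E2, 16Epi and EtOH, squares the 3 hydroxyestrogens. The circles of a gene lie close together, as for Il1b at 3042, 3236 and 3166 RPKM with E2, 16Epi and EtOH. The squares lie apart from them in several genes, among them Il1a, Il1b, Ccl2, Ifnb1, Gclc and Hmox1.

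A set of 6 promoter windows shows the DNA context of this baseline. In RefSeq promoters (build GRCm38.p6, 250 bases before to 50 after each gene's start), the NF-κB motif GGGNNTTTCC on either strand occurred in 535 of 32851 promoters (1.63%), and in 123 of the 5511 tested genes with a promoter (2.23%). Among LPS-response, TLR4 and feedback genes it occurred in 16 of 99. The windows of 6 such genes with high RPKM are printed 5′ to 3′ on the gene's strand, with the match in capitals.
Cxcl2: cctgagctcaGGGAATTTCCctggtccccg
Ccl9: tttgaactttGGAAAGCCCCaagtcacctt
Cxcl3: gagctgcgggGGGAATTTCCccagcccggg
Cxcl1: ccggttgcagGGAAACACCCtgtactccgg
Nfkbia: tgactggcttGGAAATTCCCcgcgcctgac
Il6: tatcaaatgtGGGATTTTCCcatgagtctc
They lie at chr5:90903792-90903821 on the plus strand (Cxcl2), chr11:83578652-83578681 on the minus strand (Ccl9), chr5:90786018-90786047 on the plus strand (Cxcl3), chr5:90891146-90891175 on the plus strand (Cxcl1), chr12:55492657-55492686 on the minus strand (Nfkbia) and chr5:30013060-30013089 on the plus strand (Il6). The 6 transcripts differed by less than 1.5-fold between E2, 16Epi and EtOH: Cxcl2, a neutrophil attractant, had 2439, 2500 and 2468 RPKM with E2, 16Epi and EtOH. Nfkbia, the inhibitor IκBα that NF-κB induces, had 637, 635 and 646 RPKM in the same order. Over the 123 genes with the motif the median log2 difference of both estrogens from EtOH was 0.02, beside 0.01 over all tested genes. The palindromic estrogen response element GGTCANNNTGACC occurred in 23 of 32851 promoters (0.07%) and in 0 of those of the 5511 tested genes, which says only that these letters are not in these windows. A match is a description and not a shown binding site.

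Receptors for the estrogens were at or near the detection limit. Esr1 had 0.082 RPKM with E2 and 0.042 with 16Epi, against 0.395 with EtOH; in reads these were 6 and 3, against 31. By counting error alone, the E2 library held 0.208 times the EtOH level (95% exact interval 0.0705 to 0.503) and the 16Epi library 0.106 times (0.0207 to 0.339). The hydroxyestrogen libraries held 24 (2OHE2), 11 (4OHE1) and 24 (2OHE1) Esr1 reads. Both estrogen libraries were thus the lowest of the 6 for Esr1, a gene too low to enter the test, and 1 library per compound gives no replicate check. Esr2 had 0 reads with E2, 16Epi and EtOH. Gper1 had 8 reads with E2, 0 with 16Epi and 3 with EtOH; its span is overlapped on the other strand by 3110082I17Rik, whose mean was 17 RPKM and whose reads cannot be told apart from its own, since no source used here states whether counting used strand.

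Of 24 estrogen receptor and coregulator genes 14 passed the filter on low values, and the median log2 difference from EtOH was -0.02 with E2 and -0.03 with 16Epi, beside 0.01 and 0.02 over all tested genes. The receptor chaperone Hsp90ab1 had 467 and 465 RPKM with E2 and 16Epi, against 483 with EtOH. Its partner Hsp90aa1 had 68.8 and 76.2 RPKM with E2 and 16Epi, against 84.8 with EtOH. The coactivator methyltransferase Prmt1 had 134 RPKM with E2, 124 with 16Epi and 136 with EtOH. Of 32 genes known as estrogen receptor targets in other tissues, 14 passed the filter; Pgr, Tff1, Stc2, Tgfa and Adora1 were listed at 0 in all 3 libraries. The lysosomal protease Ctsd had 1353 RPKM with E2, 1357 with 16Epi and 1365 with EtOH. Xbp1, a transcription factor of the unfolded protein response, differed most on the list, with 56.3 and 63.3 RPKM with E2 and 16Epi, against 45.5 with EtOH. Its log2 difference of both estrogens from EtOH was 0.39 ± 0.15 (SE; limma, unadjusted p = 0.0222, adjusted p = 1). No member of either list was past 1.5-fold in either estrogen library; the shares over all tested genes are given below with the sizes of the differences.

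Enzymes that handle steroids ranged from undetected to moderate levels. Cyp1b1, which hydroxylates estradiol to a catechol, had 6.12 and 6.6 RPKM with E2 and 16Epi, against 7.36 with EtOH. Hsd17b12, a 17β-hydroxysteroid dehydrogenase family member, had 114, 117 and 116 RPKM with E2, 16Epi and EtOH. Cyp19a1 (aromatase), Cyp1a1 and the estrogen sulfotransferase Sult1e1 were listed at 0 in all 3 libraries. Over the 13 enzymes that passed the filter, of 23 measured, the median log2 difference from EtOH was -0.02 with either estrogen.

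The question the design poses of these libraries is how far either estrogen library lay from the vehicle. Over the 7139 tested genes the median absolute log2 difference was 0.12 for E2 minus EtOH, 0.12 for 16Epi minus EtOH and 0.12 for E2 minus 16Epi, that is 1.08-, 1.09- and 1.09-fold. The SDs of these differences were 0.21, 0.22 and 0.21. Counting error of a gene with the median number of reads, 804 with E2 and 847 with EtOH, is 0.07 (SE, log2). With E2, 69 genes were at least 1.5-fold higher than with EtOH (0.967%) and 56 at least 1.5-fold lower (0.784%). With 16Epi, 68 genes were past that fold above EtOH (0.953%) and 72 below it (1.01%). Between the estrogens, 64 genes were past it higher with E2 (0.896%) and 60 lower (0.84%). Either estrogen thus lay about as far from EtOH as the estrogens lay from each other. Past 2-fold were 10 genes for E2 minus EtOH, 10 for 16Epi minus EtOH and 5 for E2 minus 16Epi. The same 1.5-fold was passed against EtOH by 408 genes with 2OHE2 (5.72%), 644 with 4OHE1 (9.02%) and 339 with 2OHE1 (4.75%). These 5 comparisons share the EtOH library.

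**Figure D2:**
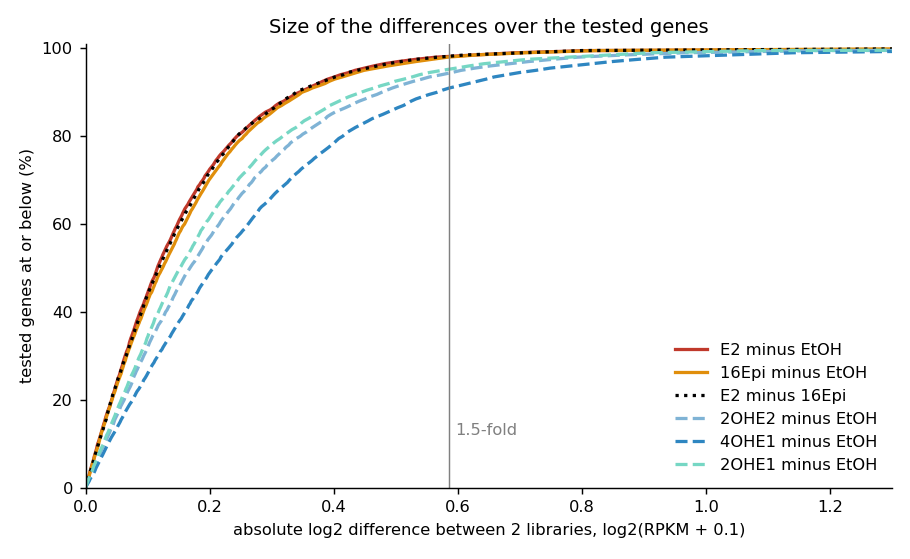
Share of the 7139 tested genes (%) at or below a given absolute log2 difference between 2 libraries, in log2(RPKM + 0.1); the vertical line marks 1.5-fold. The curves of E2 minus EtOH, 16Epi minus EtOH and E2 minus 16Epi run together and leave 125, 140 and 124 genes past the line; those of the 3 hydroxyestrogens minus EtOH run lower and leave 408, 644 and 339.

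The differences depended on abundance. Among the 3830 genes at a mean of 5 to 20 RPKM, 117 were past 1.5-fold for E2 minus EtOH and 132 for 16Epi minus EtOH. Among the 2579 genes at 20 to 100 RPKM, 8 and 8 were past it for the same comparisons. Among the 730 genes over 100 RPKM, 0 were past it with either estrogen. In that class the median absolute log2 difference was 0.07 for E2 minus EtOH and 0.08 for 16Epi minus EtOH.

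A formal test was made with limma, in a fit with 1 coefficient each for E2, 16Epi and EtOH in which the spread came from the 3 hydroxyestrogen libraries (2 residual degrees of freedom). A lone library was assumed to vary like these, whose spread includes differences between 3 compounds. After Benjamini-Hochberg adjustment over all genes, 0 of 7139 genes passed 0.05 for E2 minus EtOH (0%), 16Epi minus EtOH (0%) or E2 minus 16Epi (0%). Unadjusted p-values under 0.05 numbered 57, 85 and 50, which are 0.798%, 1.19% and 0.7% of the genes. A well-matched spread would give a share of about 0.05 with no effect, so the spread used here was wide for these pairs. Few calls could be expected under it, and their absence does not show that the estrogens had no effect. With the 3 pairs adjusted together the count was 0 as well. Taking both estrogens as 1 group against EtOH (3 residual degrees of freedom) also gave 0 genes (0%), with 122 unadjusted. limma-voom on the recovered reads called 0 genes in each of these 4 comparisons.

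Given the assumed spread, the intervals bound the size of an effect that could have gone unseen. The median half-width of limma's 95% interval was 0.56 in log2 (1.48-fold) for either estrogen alone against EtOH and for E2 minus 16Epi. It was 0.44 (1.36-fold) for both estrogens against EtOH. For that comparison, the interval lay wholly within 2-fold for 6709 genes (94%) and within 1.5-fold for 3865 (54.1%). Over 100 RPKM, 729 of 730 genes had an interval within 2-fold and 698 (95.6%) within 1.5-fold; at 5 to 20 RPKM these were 89.1% and 25.6%. These intervals are not adjusted over genes. The adjusted test called no gene at any size, including Hcst, whose log2 difference of 1.29 is described below.

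For Tnf, both estrogens minus EtOH was 0.08 in log2 (95% interval -0.17 to 0.33). For Il1b it was -0.01 (-0.48 to 0.45), for Il6 -0.08 (-0.50 to 0.34) and for Irg1 0.01 (-0.22 to 0.24). Ccl2 had -0.21 (-0.51 to 0.10) and Il12b -0.22 (-0.56 to 0.12), lower in both estrogen libraries but with intervals that include 0. Ifnb1 had 0.21 (-1.47 to 1.89), by far the widest interval of these genes; the hydroxyestrogen libraries, which give the spread, held 1.59, 9.57 and 7.41 RPKM. Of 18 genes followed whatever their values, 15 passed the filter. In this fit 14 of these had an interval within 1.5-fold of EtOH, and the other is Ifnb1. In a fit with the label numbers as a block, described below, Il1b (-0.61), Il6 (-0.57) and Ifnb1 (-2.13) lay outside the intervals given here. Tnf, Irg1, Ccl2 and Il12b lay inside theirs.

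**Figure D3:**
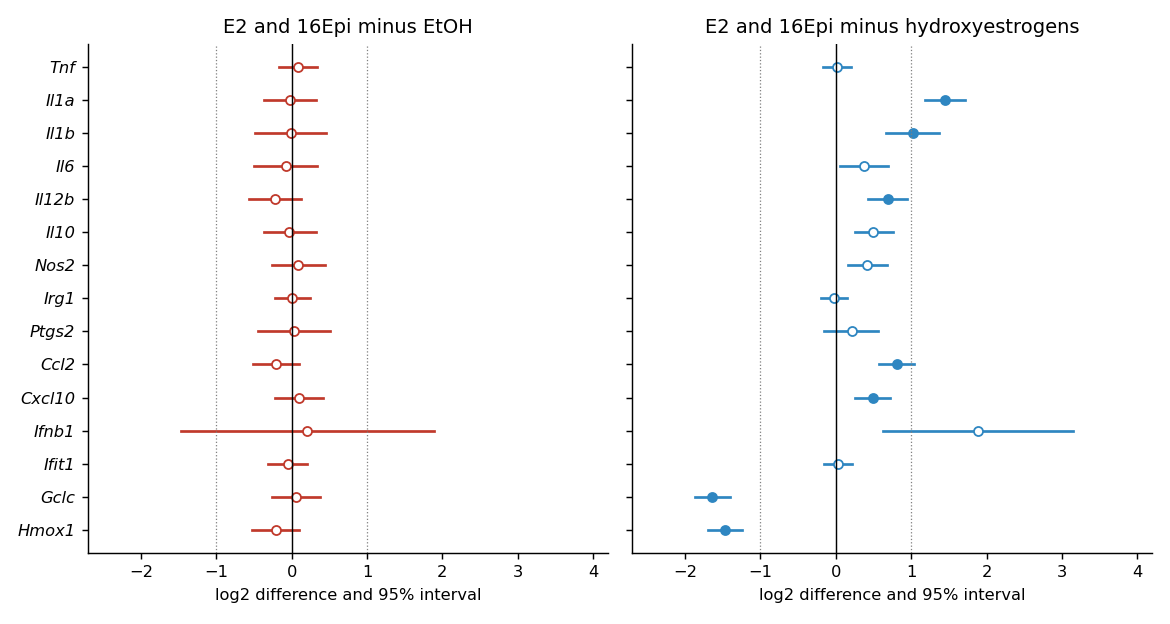
limma log2 differences with 95% intervals for the 15 genes, both estrogens minus EtOH (left) and both estrogens minus the hydroxyestrogens (right); filled points passed an adjusted p of 0.05, dotted lines mark 2-fold. On the left all intervals include 0 and 14 of 15 lie within 2-fold; on the right the filled points are Il1a, Il1b, Il12b, Ccl2 and Cxcl10 above 0 and Gclc and Hmox1 below.

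E2 and 16Epi were compared directly at the same dilution and times. Il1b differed by -0.09 in log2 (E2 minus 16Epi, 95% interval -0.68 to 0.50) and Tnf by -0.03 (-0.38 to 0.33). Il6 differed by -0.24 (-0.75 to 0.28), Cxcl10 by -0.17 (-0.59 to 0.24) and Hmox1 by 0.20 (-0.19 to 0.59). Gclc had 21.4 RPKM with either estrogen, a log2 difference of -0.00 (-0.43 to 0.43). None of these passed the test at an adjusted limma p under 0.05, and intervals of this width do not show that the estrogens act alike. Of the 5 largest differences each way, 9 were in genes with under 20 RPKM in both libraries, and the other in Lars2. Snhg12, a host gene of small nucleolar RNAs that lie within its span, had 8.29 RPKM with E2 and 3.3 with 16Epi, a log2 difference of 1.31 (unadjusted p = 0.00689, adjusted p = 0.999). Trmt61b, a mitochondrial tRNA methyltransferase, had 9.9 RPKM with E2 and 5.02 with 16Epi, and Nmnat1, an NAD-synthesis enzyme, had 7.68 and 3.93. Lars2, the mitochondrial leucyl-tRNA synthetase, had 282 RPKM with E2 and 146 with 16Epi, beside 216 with EtOH, and it varied among the hydroxyestrogens from 196 to 552. Bola1, a mitochondrial BolA-family protein, had 6.71 RPKM with E2 and 3.48 with 16Epi, beside 9.24 with EtOH. Ndufb4, a respiratory complex I subunit, had 4.05 RPKM with E2 and 11.4 with 16Epi, beside 15.6 with EtOH. Cenpn, Dnmt3l, Phykpl and Impa2 were the next lowest with E2, by -1.14 to -0.99 in log2. Trmt61b and Phykpl overlap Spdya and Hnrnpab on the other strand, and their reads cannot be told apart without strand.

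Genes in which both estrogens lay on the same side of EtOH by at least 1.5-fold numbered 31, of which 20 were higher and 11 lower with the estrogens (0.434% of 7139). They share the EtOH library, so a single low or high EtOH value places a gene here. The same count was 29 for the E2 library against 16Epi and EtOH (0.406%) and 34 for the 16Epi library against E2 and EtOH (0.476%). The number shared by both estrogens was thus close to that by which any 1 of the 3 libraries stood apart from the others. Of the 31 genes, 29 had a mean under 20 RPKM, as did 53.6% of all tested genes. At 2-fold the counts were 3 for EtOH, 1 for E2 and 0 for 16Epi.

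The largest shared difference was in Hcst (mm9 chromosome 7, 31202731 to 31204873), which encodes the signalling adaptor DAP10. It had 18.4 RPKM with E2 and 21.5 with 16Epi, against 8.06 with EtOH, which are 137 and 156 reads against 64. The log2 difference of both estrogens from EtOH was 1.29 ± 0.28 (SE; 95% interval 0.68 to 1.91), with an unadjusted limma p of 0.000769, the smallest of that comparison, and an adjusted p of 1. The hydroxyestrogen libraries held 19.7, 27.2 and 15.5 RPKM, so EtOH was the lowest of all 6. 2300009A05Rik had 10.3 and 10.4 RPKM with E2 and 16Epi, against 4.62 with EtOH, again the lowest of the 6. Vaultrc5, a small vault RNA gene, had 10.6 and 13.1 RPKM with E2 and 16Epi, against 4.79 with EtOH, and the hydroxyestrogens ranged from 5.5 to 19.3. Ccnf, a cyclin F-box protein, had 7.33 and 7.91 RPKM with E2 and 16Epi, against 3.96 with EtOH. Nfatc1, a calcium-regulated transcription factor, had 11.3 and 11.6 RPKM with E2 and 16Epi, against 6.39 with EtOH; the hydroxyestrogens held 10.1, 8.65 and 8.19. 2810008D09Rik, Zfp672 and Fam195a completed the 8 most higher, with log2 differences of both estrogens from EtOH of 1.01, 0.84 and 0.78. EtOH was the lowest of all 6 libraries for 7 of the 8 genes, the exception being Fam195a.

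Among those lower with both estrogens, 2310039H08Rik had 4.11 RPKM with E2 and 5.3 with 16Epi, against 10.6 with EtOH, and the hydroxyestrogens held 5.23 to 6.58. Tax1bp3, a PDZ-domain protein, had 4.2 and 3.57 RPKM with E2 and 16Epi, against 8.01 with EtOH; here the hydroxyestrogens reached 5.56 to 9.16, above both estrogens. Ppm1b, a protein phosphatase, had 5.54 and 5.98 RPKM with E2 and 16Epi, against 10.9 with EtOH. Khk, the ketohexokinase that phosphorylates fructose, had 9.01 and 8.57 RPKM with E2 and 16Epi, against 15.5 with EtOH. Rpa3, a subunit of the single-stranded DNA-binding complex RPA, had 7.51 and 8.36 RPKM with E2 and 16Epi, against 14.2 with EtOH. Cbr4, a carbonyl reductase, had 5.56 and 7.15 RPKM with E2 and 16Epi, against 11.9 with EtOH, and 1600002K03Rik and 2410016O06Rik were the other two. EtOH was the highest of all 6 libraries for 6 of the 8 genes, the exceptions being Tax1bp3 and 2410016O06Rik. None of the 16 genes passed the adjusted test in this fit. A fit with the spread taken from E2 and 16Epi alone (1 residual degree of freedom) treats these different compounds as replicates. Its log2 differences were those of the main fit, 1.29 for Hcst, 1.14 for 2300009A05Rik and 1.28 for Vaultrc5. The 16 genes were picked for both estrogens lying on the same side of EtOH. Calls from that fit, given below, are thus no separate support for them.

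**Figure D4:**
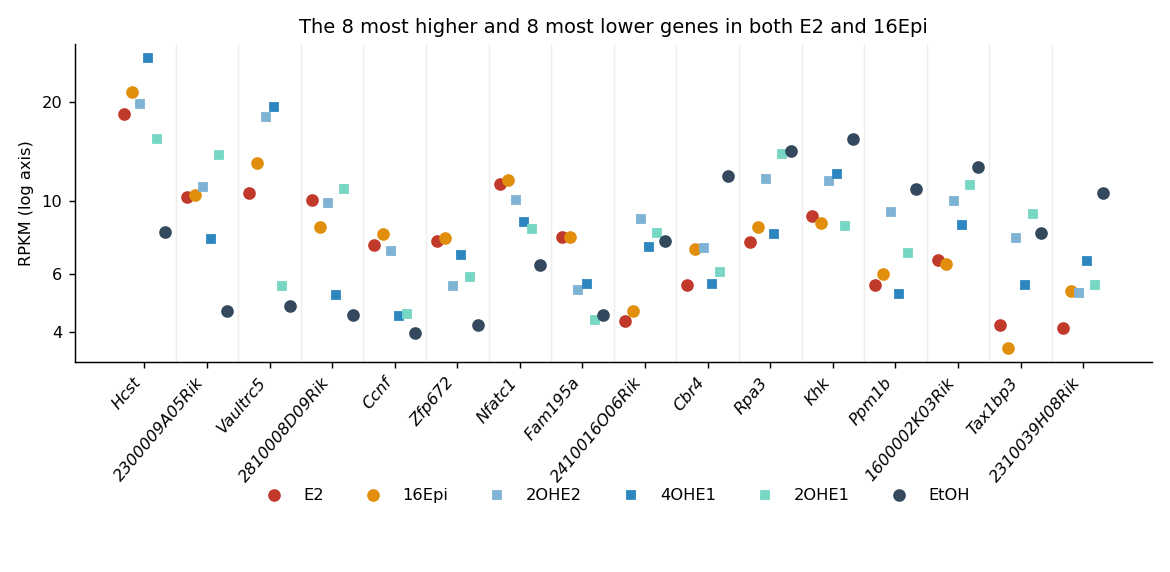
RPKM (log axis) of the 8 most higher and the 8 most lower genes shared by E2 and 16Epi, 1 point per library. EtOH (dark circle) is set apart from E2 and 16Epi in each by construction; it is also below the 3 hydroxyestrogens (squares) in 7 of the 8 higher genes and above them in 6 of the 8 lower genes.

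By gene list, members past 1.5-fold were few, as they were over all tested genes, where 1.75% were past it with E2 and 1.96% with 16Epi. Nothing particular to a list is read from its count. The 18 tested inflammatory cytokines, of 21 listed, had a median log2 difference from EtOH of -0.10 with E2 and 0.00 with 16Epi, and 0 were past 1.5-fold. The 17 tested chemokines had medians of -0.06 with E2 and -0.02 with 16Epi; 1 was past 1.5-fold (with 16Epi), Ccl17, a ligand of CCR4, at 6.34 and 5.19 RPKM with E2 and 16Epi, against 8.3 with EtOH. The 36 interferon-stimulated genes had medians of -0.03 with E2 and 0.02 with 16Epi, with 34 intervals of both estrogens against EtOH inside 1.5-fold. In that list the most different was Oasl1, an interferon-induced regulator of translation, at 273 and 280.5 RPKM with E2 and 16Epi, against 340.4 with EtOH. The 20 feedback inhibitors of LPS signalling had medians of 0.03 with E2 and 0.08 with 16Epi; Cish, a cytokine-signalling suppressor, differed most, at 7.83 and 7.96 RPKM with E2 and 16Epi, against 11.6 with EtOH. In the TLR4 sensing machinery 1 of 25 genes was past 1.5-fold (with E2), Ly96, at 9.84 RPKM with E2 and 15.9 with 16Epi, against 16.7 with EtOH.

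Metabolic and stress lists are read against the same shares of 1.75% and 1.96%. The 19 effector enzymes and acute-phase genes had medians of -0.08 with E2 and -0.05 with 16Epi. The 29 NRF2 targets, which serve glutathione synthesis, quinone detoxification and iron handling, had medians of -0.04 with E2 and -0.11 with 16Epi, and 0 were past 1.5-fold. The 19 glycolysis and hypoxia genes had medians of -0.06 with E2 and -0.15 with 16Epi; the pyruvate kinase Pkm had 1030 RPKM with E2 and 901 with 16Epi, against 1037 with EtOH, and Bnip3, a hypoxia-induced mitophagy receptor, was past 1.5-fold with 16Epi at 5.77 RPKM, against 8.86 with EtOH. The 25 cell cycle genes had the highest medians, 0.05 with E2 and 0.18 with 16Epi, and 21 of 25 were above EtOH in the mean of both estrogens, where 3828 of 7139 tested genes were. Other lists leaned the other way, with 3 of 29 NRF2 targets and 4 of 19 glycolysis and hypoxia genes above EtOH. Members share the 1 EtOH library, so their signs are not independent. Between the estrogens the cell cycle median was -0.10 (E2 minus 16Epi). Aurkb, a mitotic kinase, had 15.5 and 17 RPKM with E2 and 16Epi, against 11.8 with EtOH (log2 difference 0.46 ± 0.20 (SE), limma, unadjusted p = 0.0446, adjusted p = 1). The 13 immediate early genes had medians of -0.01 with E2 and 0.03 with 16Epi; Fosl1, an AP-1 subunit, was past 1.5-fold with 16Epi, at 10.8 and 8.13 RPKM with E2 and 16Epi, against 14 with EtOH, and it overlaps Ccdc85b on the other strand. Medians of the aryl hydrocarbon receptor targets, sterol synthesis genes, LXR targets, heat shock genes, ATF4 targets and alternative activation genes lay between -0.12 and 0.02 with either estrogen.

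**Figure D5:**
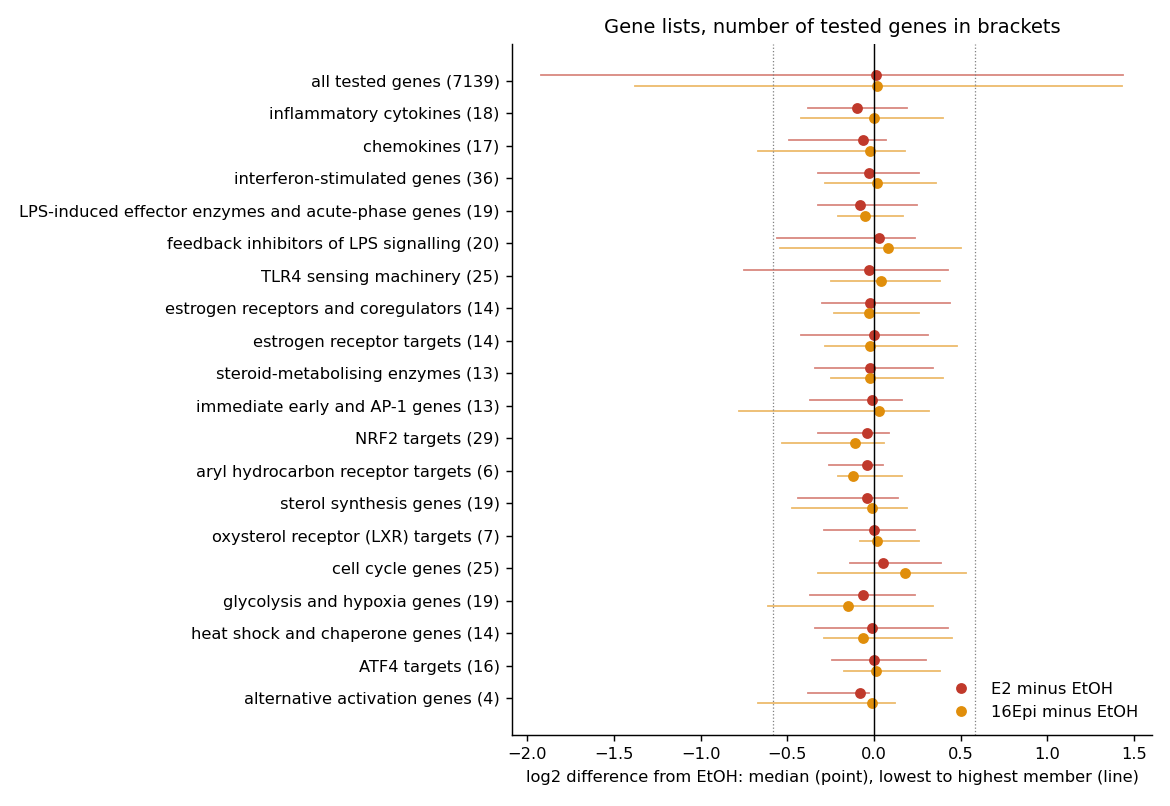
Median (point) and lowest to highest member (line) of the log2 difference from EtOH for 19 gene lists and for all tested genes, E2 above 16Epi in each row; dotted lines mark 1.5-fold. All list medians lie between -0.15 and 0.18; lines cross a dotted line for chemokines, TLR4 sensing machinery, immediate early genes, glycolysis and hypoxia genes and alternative activation genes.

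E2 and 16Epi were also set against the 3 hydroxyestrogens. E2 lacks their catechol, but 4OHE1 and 2OHE1 derive from estrone and not from estradiol, and the structure of 16Epi is not given in the labels, so the groups differ in more than 1 feature. In the fit with both estrogens as 1 group, 53 genes were higher (0.742%) and 129 lower (1.81%) with E2 and 16Epi than with the hydroxyestrogens, at an adjusted limma p under 0.05. Each group pools different compounds, and 986 genes had an unadjusted p under 0.05. Leaving out the E2 library left 25 genes and leaving out the 16Epi library left 15. EtOH values are given beside these genes, though they took no part in this comparison.

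Lower with the estrogens were genes of glutathione and iron metabolism. Gclc, the catalytic subunit of glutamate-cysteine ligase, had 21.4 RPKM with E2 and 21.4 with 16Epi, against 62.1, 71.4 and 67 with 2OHE2, 4OHE1 and 2OHE1; EtOH had 20.6. Its log2 difference was -1.64 ± 0.11 (SE, limma adjusted p = 9.98e-05). Hmox1, which breaks down haem, had 841 and 733 RPKM with E2 and 16Epi, against 2024, 2462 and 2064 with the hydroxyestrogens, beside 906 with EtOH (difference -1.47 ± 0.10 (SE), limma adjusted p = 0.000115). Slc40a1, the iron exporter ferroportin, had 7.39 and 7.93 RPKM with E2 and 16Epi, against 18.6, 27.7 and 26.1 with the hydroxyestrogens, beside 10 with EtOH. Ednrb, the endothelin B receptor, had 10.5 and 12.5 RPKM with E2 and 16Epi, against 34, 54 and 44.9 with the hydroxyestrogens, beside 13.1 with EtOH; Layn, a hyaluronan receptor, was the other of the 5 most lower genes. Of the 29 NRF2 targets, 21 were lower with the estrogens and 0 higher, where 1.81% and 0.742% of all tested genes were. The list was chosen with earlier results of these data known, so its count is a description and no separate support. The median log2 difference of the list was -0.63, beside 0.03 over all tested genes.

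Higher with the estrogens were parts of the LPS response. Il1a (mm9 chromosome 2, 129125346 to 129135708), an alarmin cytokine, had 687 and 775 RPKM with E2 and 16Epi, against 232, 261 and 313 with the hydroxyestrogens, beside 742 with EtOH. Its log2 difference was 1.45 ± 0.12 (SE, limma adjusted p = 0.000177). Gm14023 overlaps Il1a on the other strand and cannot be told apart from it without strand; it had 119 and 139 RPKM with E2 and 16Epi, against 42.2, 46.7 and 64.1 with the hydroxyestrogens. Serpinb2, a plasminogen activator inhibitor, had 313 and 331 RPKM with E2 and 16Epi, against 73.8, 152 and 109 with the hydroxyestrogens, beside 294 with EtOH. F3, tissue factor, had 5.87 and 4.31 RPKM with E2 and 16Epi, against 1.53, 1.52 and 0.985 with the hydroxyestrogens, beside 4.91 with EtOH. Ch25h, which makes 25-hydroxycholesterol, had 75.6 and 90.1 RPKM with E2 and 16Epi, against 32.5, 34.1 and 40.6 with the hydroxyestrogens, beside 84.1 with EtOH. Il1b was higher by 1.02 ± 0.16 (SE, limma adjusted p = 0.00729) and Ccl2 by 0.81 ± 0.10 (SE, limma adjusted p = 0.00292). Both calls were lost without the E2 library (limma adjusted p = 0.0761 and 0.0671 for Il1b and Ccl2) and without the 16Epi library (limma adjusted p = 0.165 and 0.0903), with log2 differences of 0.80 to 1.06. The calls of Serpinb2 and F3 were also lost without either library, and that of Gm14023 without 16Epi. Tnf, at 1824, 1933 and 2076 RPKM with the hydroxyestrogens, differed by 0.01 ± 0.08 (SE; 95% interval -0.17 to 0.20), and Irg1 by -0.02 ± 0.08 (SE; -0.19 to 0.15). Of 18 tested cytokines 5 were higher and 0 lower, and of 17 tested chemokines 7 were higher and 1, Cxcl3, lower, where 0.742% of all tested genes were higher and 1.81% lower. Of the 36 interferon-stimulated genes 0 were higher and 1, Oasl1, lower. These lists too were chosen with earlier results of these data known, so their counts are descriptions.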

How the data were processed

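Per the labels' protocols, mRNA libraries of the 6 cultures were read on a HiSeq 2500. Reads were handled with STAR, HOMER, DESeq2 and edgeR on mm9, per the submitters' processing notes, which give no versions. RPKM values over exons (named FPKM in the columns) were made by the authors with HOMER, per the file headers; log2 expression values from the authors' deposited table served as an alternative. Replicates were not pooled, and compounds follow the sample titles. The titles number EtOH, E2 and 16Epi as controls 1, 2 and 3, and the hydroxyestrogens 2OHE2, 4OHE1 and 2OHE1 as 1, 2 and 3. Setting E2 and 16Epi apart from EtOH was a choice made here. Whole reads were recovered as RPKM times length times library total (100% of low values fell within 0.1 of a whole number). limma 3.58.1 in R 4.3.3 was run on log2(RPKM + 0.1) with a variance trend, two-sided, with Benjamini-Hochberg adjustment over 7139 genes and a threshold of 0.05. The fits were also run on simulated counts in which the hydroxyestrogen libraries had the same means. Such counts cannot show whether a lone library varies like libraries of different compounds. Intervals of read ratios are exact binomial and cover counting error only. No label shows separate cultures, so p-values reflect a spread that may be technical apart from the differences between compounds that it includes.

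Named genes were 18 genes whatever their values, the 10 of highest RPKM with EtOH, the 8 most higher and 8 most lower in both estrogens, the 5 largest differences each way between the estrogens and from the hydroxyestrogens, and the highest and most different members of 19 lists; the rest, such as genes listed at 0, were chosen after their values were seen. The members and lists were chosen with earlier results of these data known. Of 500 listed genes, 3 were matched by another name and 6 were not used here. Promoter sequences are RefSeq's. One gene's values are not reported here.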

Additional observations from a re-analysis of the deposited data

How the results depend on the processing

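Main counts of called genes were 0 for E2 minus EtOH, 16Epi minus EtOH, E2 minus 16Epi and both estrogens minus EtOH. They were also 0 under pseudocounts of 1 and 0.01, means of at least 1 or 20 RPKM, median-ratio scaling, no variance trend, limma-voom and the authors' log2 values. In the authors' values differences of low genes were smaller. Both estrogens minus EtOH was 0.20 there for Hcst, against 1.29, and 0.10 for Vaultrc5, against 1.28. Counts of 0 with those values, here and below, are thus no separate evidence. With no RPKM filter the main counts became 924, 921, 898 and 166. Of these, 910, 905, 884 and 163 were genes at 0 in all 3 hydroxyestrogen libraries. In such genes the spread was 0 for each pair of libraries. For both estrogens minus EtOH it also held the difference between E2 and 16Epi. Leaving out 1 hydroxyestrogen library at a time gave 0 to 2 (E2 minus EtOH), 0 to 1 (16Epi minus EtOH), 0 to 1 (E2 minus 16Epi) and 0 (both minus EtOH). The calls came without 2OHE2: Hist3h2a and Ndufb4, then Hcst, then Lars2. With E2, 16Epi and EtOH only, both minus EtOH called 4 genes (2300009A05Rik, Hcst, Ppp1r14a and Vaultrc5). With the replicate block it called 95 and both estrogens minus hydroxyestrogens 746. The numbers join different compounds. Same-numbered deviations correlated at 0.11 (E2 with 4OHE1) and 0.13 (16Epi with 2OHE1). Differently numbered ones correlated at -0.13 (E2 with 2OHE1) and -0.11 (16Epi with 4OHE1). The values of E2 and 16Epi mirror each other, so they are not separate checks of the numbers. The block rests on a number only, with EtOH set against 2OHE2 alone. Under it Ptgs2 was -0.51 and Ifnb1 -2.13 in both minus EtOH, against 0.03 and 0.21, and Il1b was -0.61 and Il6 -0.57, against -0.01 and -0.08, all 4 of them called (limma adjusted p = 0.00629, 4.95e-06, 0.000143 and 0.00351). It also called Hcst, 2300009A05Rik, Vaultrc5, 2810008D09Rik and Ccnf (limma adjusted p = 0.00233, 0.0483, 2.51e-06, 0.0311 and 0.0358); the cause was not tested.

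Both estrogens minus hydroxyestrogens called 182 genes; the count was 0 with no RPKM filter, 27 with no variance trend, 280 with the authors' log2 values, 103 with 1 coefficient per estrogen and 15 to 233 when 1 library was left out (25 without E2, 15 without 16Epi); the cause was not tested. The 10 genes of largest difference there kept their sign in all settings, and all 10 lost their call with no RPKM filter, as did Il1b and Ccl2. Serpinb2, Il1b and Ccl2 lost it in 4 of 16 settings and F3 and Gm14023 in 3, with limma adjusted p up to 0.325 (Il1b); Tnf, not called, turned sign in 5 of 16, between -0.03 and 0.06. The 31 genes past 1.5-fold on 1 side of EtOH became 241 at a mean of at least 1 RPKM, 2 at 20, 1381 with no filter, 0 with the authors' log2 values and 3 at 2-fold. With alternatives chosen after seeing the data, the E2 library stood apart in 236, 2, 1332, 0 and 1 genes and the 16Epi library in 239, 2, 1327, 0 and 0, with 21 for 16Epi at a pseudocount of 1. Of 31 named genes, 10 turned sign in both estrogens minus EtOH under at least 1 of up to 17 settings, none past the threshold in the main fit. With 1 library a compound, the adjusted test of the main fits called no gene against EtOH. Absolute log2 differences reached 1.92 with E2, 1.43 with 16Epi and 1.29 with both estrogens together (Hcst). Unadjusted intervals of both estrogens against EtOH lay within 1.5-fold for 25.6% of genes at 5 to 20 RPKM.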
